A study of Mus musculus with 6 samples.

Results

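The solute carriers are the membrane proteins that move amino acids, sugars, vitamins, ions, metals and other small solutes into cells, out of them or between their compartments. Their genes were taken here by name, as every row of the expression table named Slc and a digit with a normalised read count of at least 10 in at least 3 of 6 libraries. The 5 genes Slc7a1, Slc7a5, Slc7a11, Slc3a2 and Slc25a20 were left out by name. Of 384 rows with such a name, 186 met the rule, out of 10987 genes in the table that met the same level. A further 148 lay under the level and 45 were listed at 0 in all 6 libraries. The members were thus chosen by their level over all 6 libraries, and their difference between genotypes was not used.

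Tongue epithelium was profiled in 6 mice by 3'-end mRNA sequencing, with 1 library per mouse. The KO mice, genotype K14CreERT2 IRE1 F/F, combined floxed alleles of Ire1α (Ern1) with a tamoxifen-inducible Cre under the keratin 14 promoter, which acts in basal keratinocytes (n = 3). The WT mice, genotype IRE1F/F, were littermates with the floxed alleles and no Cre (n = 3). Tamoxifen was given to every mouse, WT included, on 4 consecutive days, with harvest on day 5, and the epithelium was peeled after enzyme digestion, so the sample could also hold cells in which that promoter is not active.

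Solute carriers are numbered by family, and a family mostly shares a kind of substrate. Some work at the plasma membrane, driven by the sodium and proton gradients that pumps maintain, and others sit in mitochondria, the Golgi, the ER or lysosomes. In stratified epithelia they are known for feeding the dividing basal layer, for fatty acid handling in the barrier and for zinc supply. Ire1α senses unfolded protein in the ER, where nucleotide sugars and ATP are brought in by carriers of family 35.

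The promoters shown are those of Slc25a48 and Slc16a9, the genes with the smallest p in each direction, and of Slc2a9, a urate and hexose carrier that did not pass the test and was chosen after its values and its motif were seen. Each runs from 250 bases before to 50 after a start site in RefSeq (GRCm38.p6), read 5′ to 3′ on the gene's strand, and capitals mark a match to any of the 4 motifs searched. Slc25a48 is at chr13:56438105-56438404 on the plus strand, Slc16a9 at chr10:70245026-70245325 on the plus strand and Slc2a9 at chr5:38483336-38483635 on the minus strand.
Slc25a48: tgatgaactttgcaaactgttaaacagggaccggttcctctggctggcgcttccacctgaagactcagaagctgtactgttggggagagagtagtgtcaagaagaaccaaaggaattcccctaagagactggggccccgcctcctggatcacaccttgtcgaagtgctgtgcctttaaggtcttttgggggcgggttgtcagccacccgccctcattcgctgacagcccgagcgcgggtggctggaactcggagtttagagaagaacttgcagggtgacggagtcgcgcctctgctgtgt
Slc16a9: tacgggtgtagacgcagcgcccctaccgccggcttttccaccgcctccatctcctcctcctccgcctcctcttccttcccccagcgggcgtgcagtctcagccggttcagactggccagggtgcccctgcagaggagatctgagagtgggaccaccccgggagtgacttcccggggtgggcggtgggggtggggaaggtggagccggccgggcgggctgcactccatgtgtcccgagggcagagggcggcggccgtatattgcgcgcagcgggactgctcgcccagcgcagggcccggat
Slc2a9: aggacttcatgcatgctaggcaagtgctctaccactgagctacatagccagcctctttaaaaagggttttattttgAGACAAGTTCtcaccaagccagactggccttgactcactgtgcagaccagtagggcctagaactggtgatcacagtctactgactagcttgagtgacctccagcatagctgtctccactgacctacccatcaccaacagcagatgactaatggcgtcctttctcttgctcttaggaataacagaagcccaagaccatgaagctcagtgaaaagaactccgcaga

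Both strands were searched for the unfolded protein response element (TGACGTGG), the CARE element of ATF4 and CHOP (TGATGNAA), the E-box (CACGTG, which shares ACGTG with the first) and the p53 half-site. RefSeq promoters were matched by symbol for 146 of the 186 genes, in 183 windows. The windows of Slc25a48, Slc16a9 and Slc25a21 held 0 matches, and that of Slc2a9 held 1 p53 half-site, at bases 77 to 86 of the window. The p53 half-site was in 18 of 183 solute carrier windows (9.84%), against 8.36% of all 32851 windows. The unfolded protein response element was in 3 of 183 (1.64%), against 0.676% of all windows. The E-box was in 25 of 183 (13.7%), against 7.15%, and the CARE element in 5 of 183 (2.73%), against 3.97%. A match of letters is not a bound site.

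Before the results, the libraries were compared. They held 4606309 to 6286153 reads, of which the 186 genes took 0.416% to 0.437% in KO and 0.397% to 0.473% in WT. All 8 keratinocyte markers on the list used here (Krt5, Krt14, Krt13 and others) were tested and none passed, with a summed level of 591058 to 871770 in KO and 491167 to 657564 in WT. KO replicate 1 stood apart, with a summed level of 1953 for 10 skeletal muscle markers, against 94.8 and 403 in the other KO libraries and 119.7 to 298 in WT; Acta1 was listed at 0 throughout. The 7 fibroblast markers summed to 213 to 1076 in KO and 1362 to 1877 in WT, without overlap, and 1 of the 3 tested, Dcn, passed as lower. The 5 endothelial markers summed to 45.7 to 63.9 in KO and 19.6 to 37.7 in WT, without overlap; 1 of them had the level to be tested and 0 passed. The 5 melanocyte markers summed to 59.6, 31.9 and 28.6 in KO and 22.6, 15.7 and 28.7 in WT, with overlap, and the 1 tested, Mlana, passed as higher. KO replicate 1 was also apart for 5 erythrocyte markers, at 1170.1 against 44.0 and 73.4 in the other KO libraries and 229 to 479 in WT. It was apart too for 5 nerve and glia markers, at 52.0 against 6.89 and 2.86 in the other KO libraries and 2.61 to 5.65 in WT. The targeted gene Ern1 had 78.0, 117 and 123 in KO and 102, 105 and 77.1 in WT (limma adjusted p = 0.847). If its 3' tags lie outside the deleted exons, which was not examined here, this level checks nothing about the genotype.

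In KO tongue epithelium 4 of the 186 solute carrier genes passed the test, with 2 higher and 2 lower. Slc25a48, a mitochondrial carrier linked to choline uptake, was 3.32-fold higher and Slc4a11, a member of the bicarbonate transporter family, 3.65-fold higher. Slc16a9, a monocarboxylate transporter family member linked in human to carnitine, was 4.14-fold lower and Slc25a21, the mitochondrial carrier of 2-oxoadipate, 1.99-fold lower. The test was limma on log2(normalised read count + 1) over all 10987 genes with Benjamini-Hochberg adjustment at 0.05, and folds are on that scale. The share passing was 2.15% of these genes, against a background of 1.8% of all tested genes, with 1.22% higher and 0.583% lower. The median log2 fold change of the 186 was -0.03, beside -0.01 over all tested genes, with 88 above 0 and 98 below. At an unadjusted p under 0.05 there were 25 (13.4%), beside 13.5% of all tested genes. The groups did not overlap in 36 of them (19.4%), beside 19.1% of all tested genes, with KO above WT in 23 (background 9.84%) and below in 13 (background 9.25%). Each of the overall shares was close to its background. DESeq2 on the recovered reads called the same 4, beside 3.35% of all tested genes. With a weight per library 10 passed (6 higher, 4 lower), beside 5.37% of all tested genes. The same 4 genes are the only ones of the 186 in the authors' deposited table of 341 called genes, which gives log2 fold changes of 1.77 for Slc25a48, 1.94 for Slc4a11, -2.05 for Slc16a9 and -0.98 for Slc25a21.

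**Figure D1:**
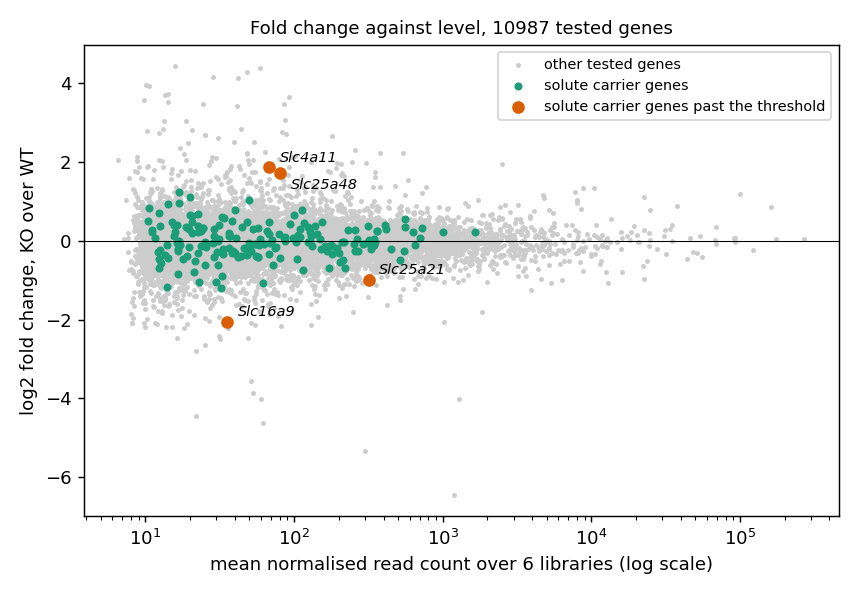
Log2 fold change of KO over WT (vertical axis) against the mean normalised read count over 6 libraries (horizontal log axis) for 10987 tested genes, with the 186 solute carrier genes in green and the 4 that passed in orange. The solute carrier genes ran from a mean of 10.5 to 1639 and from -2.05 to 1.87 on the log2 scale, inside the cloud of all genes.

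Slc25a48 (ENSMUSG00000021509, chromosome 13, 56438355 to 56474239, plus strand, GRCm38 in GENCODE M21) had 139, 134 and 101 normalised reads in KO replicates 1 to 3 and 33.0, 37.5 and 39.2 in WT replicates 1 to 3. All KO libraries were above all WT libraries. Its mean was 124 ± 20.4 in KO and 36.6 ± 3.21 in WT (SD, n = 3 each), a log2 fold change of 1.73 ± 0.22 (SE) (limma adjusted p = 0.00386). Slc4a11 (ENSMUSG00000074796, chromosome 2, 130684113 to 130697519, minus strand), known for proton and ammonia movement in the corneal endothelium, had 145, 97.4 and 81.0 in KO and 24.5, 29.7 and 30.0 in WT. KO replicate 1 was the highest library, and the lowest KO value was still above every WT value. Its log2 fold change was 1.87 ± 0.26 (SE) (limma adjusted p = 0.00662), from 108 ± 33.3 in KO and 28.1 ± 3.09 in WT. Both genes passed whichever library was left out, with highest limma adjusted p = 0.0258 for Slc25a48 and 0.0306 for Slc4a11. They also passed with edgeR (0.00484 and 0.00727), and with the style of library name as a covariate (limma adjusted p = 0.0228 and 0.0246). That style, a number in KO replicate 1 and WT replicates 1 and 2 and a letter in the others, is not explained in the labels. Within number-named libraries the log2 difference was 1.95 for Slc25a48 and 2.39 for Slc4a11, and within letter-named libraries 1.54 and 1.53. Without KO replicate 1, in which muscle, erythrocyte and nerve markers were high, the log2 fold change was 1.64 for Slc25a48 and 1.63 for Slc4a11. The part of the endothelial markers, whose sums were higher in every KO library with 0 of 1 tested passing, and of the melanocyte marker Mlana, which passed as higher, was not tested.

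Slc16a9 (ENSMUSG00000037762, chromosome 10, 70245100 to 70285968, plus strand) had 21.7, 8.62 and 11.4 in KO and 57.5, 59.3 and 53.5 in WT. The WT values lay close together and every KO value was below them. The KO values rest on 20, 10 and 12 reads. The mean was 13.9 ± 6.87 in KO and 56.8 ± 2.96 in WT (SD, n = 3 each), a log2 fold change of -2.05 ± 0.35 (SE) (limma adjusted p = 0.0155). The call was lost without KO replicate 3 (limma adjusted p = 0.0654), without WT replicate 2 (0.0871) and with the name style as a covariate (0.0521). The difference was -1.39 within number-named and -2.32 within letter-named libraries. The summed fibroblast markers were 1076, 213 and 575 in KO replicates 1 to 3 and 1697, 1362 and 1877 in WT replicates 1 to 3. The KO libraries stood in the same order for Slc16a9 and for this sum, and the WT libraries in the opposite order; the part of these cells in the result was not tested. In such samples fewer cells of a type and less RNA per cell cannot be told apart.

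Slc25a21 (ENSMUSG00000035472, chromosome 12, 56712634 to 57197472, minus strand), whose substrate is made when lysine and tryptophan are broken down, had 196, 266 and 176 in KO and 478, 342 and 444 in WT. The groups did not overlap, and KO replicate 2 was the nearest to WT. The mean was 213 ± 47.3 in KO and 421 ± 70.7 in WT (SD, n = 3 each), a log2 fold change of -0.99 ± 0.21 (SE), just past the threshold (limma adjusted p = 0.0450, edgeR 0.0499). When each library was dropped in turn it passed in 1 of 6 fits, the one without KO replicate 2, and the limma adjusted p reached 0.184 without KO replicate 3. It did not pass with the name style as a covariate (0.0963). The difference was -1.04 within number-named and -1.03 within letter-named libraries. The fibroblast sums were also lower in every KO library than in WT, though KO replicate 2, the highest KO library for Slc25a21, had their lowest sum; their part was not tested.

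**Figure D2:**
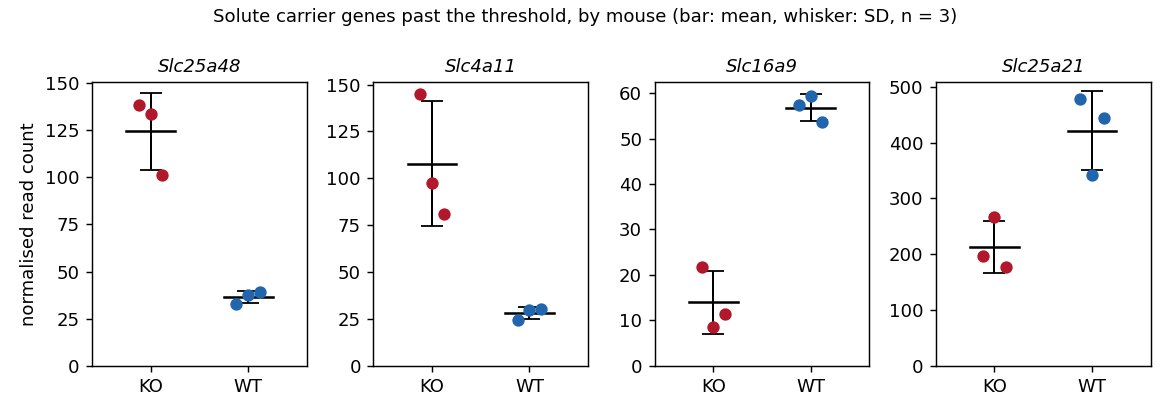
Normalised read count (vertical axis, from 0) of Slc25a48, Slc4a11, Slc16a9 and Slc25a21 in each mouse, KO left and WT right, with the mean as a bar and the SD as a whisker (n = 3 each). Slc25a48 lay at 101 to 139 in KO and 33.0 to 39.2 in WT, and Slc16a9 at 8.62 to 21.7 in KO and 53.5 to 59.3 in WT.

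Carriers of organic nutrients were read class by class. Of 22 amino acid and peptide carriers 0 passed, with 10 above 0, 12 below and a median log2 fold change of -0.01. Slc38a2, the sodium-coupled neutral amino acid transporter SNAT2, had 693, 625 and 685 in KO and 396, 503 and 468 in WT. The groups did not overlap, but the gene did not pass over all genes (0.56 ± 0.17 (SE), limma adjusted p = 0.146). Slc15a1, the oligopeptide transporter PepT1, had 75.8, 110.3 and 77.2 in KO and 156, 119 and 94.0 in WT, with overlap (log2 fold change -0.47, limma adjusted p = 0.450). Of 11 carriers of sugars and polyols 0 passed, with 8 above 0 and a median of 0.26. Slc2a9 had 161, 139 and 129 in KO and 79.2, 72.4 and 95.3 in WT, which did not overlap (0.79 ± 0.20 (SE), limma adjusted p = 0.0896). Slc37a2, of the sugar phosphate family, had 191, 84.5 and 134 in KO and 222, 190.2 and 210.3 in WT. Slc5a1, the sodium-glucose cotransporter SGLT1 and the member of this class with the highest mean, had 550.4, 836 and 476 in KO and 585, 536 and 341 in WT, with overlap. Slc2a1, the widespread glucose transporter GLUT1, was near the level rule, at 10.3 to 21.7 in KO and 6.53 to 10.5 in WT (log2 fold change 0.70, limma adjusted p = 0.544; named after its values were seen).

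Of 11 carboxylate carriers 1 passed, Slc16a9. In 5 the groups did not overlap (45.5%, beside 19.1% of all tested genes), with KO above WT in 3 and below in 2. Over the 16 classes this share ran from 0% to 45.5%, and it was 9.09% for amino acids and peptides. Slc16a3, the lactate exporter MCT4, had 32.5, 23.3 and 16.2 in KO and 11.3, 10.5 and 6.53 in WT. All KO values were above all WT values, at a low level (1.24 ± 0.40 (SE), limma adjusted p = 0.180). Slc16a1, the lactate and pyruvate carrier MCT1 and the member of this class with the highest mean, had 95.3, 37.1 and 46.7 in KO and 95.2, 88.1 and 70.5 in WT, with KO replicate 1 level with WT and the others below it (log2 fold change -0.60, limma adjusted p = 0.468). The median of the class was 0.24, the members ran from -2.05 to 1.24, and 6 were above 0. Of 7 carriers of fatty acids, bile acids and acetyl-CoA 0 passed (median 0.10), and 3 had groups that did not overlap (42.9%). Slc27a4, the fatty acid transport protein that skin barrier formation needs, was the second highest of all 186 by mean. It had 1128, 884 and 1217 in KO and 792, 764 and 1241 in WT, with KO and WT overlapping (limma adjusted p = 0.722). Its relatives Slc27a3 and Slc27a1, from the same family, gave values of opposite sign, a log2 fold change of 1.11 for Slc27a3 (limma adjusted p = 0.255) and -0.80 for Slc27a1 (0.317).

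Of 15 carriers of amines, choline, creatine and organic ions 0 passed, and the members ran from -0.60 to 0.49. Slc22a23, whose substrate is not known, had 804 ± 58.3 in KO and 645 ± 79.4 in WT (limma adjusted p = 0.450). Slc22a18, of the same family, had 63.9, 51.7 and 65.8 in KO and 78.2, 78.5 and 70.5 in WT (limma adjusted p = 0.560). Of 7 vitamin carriers 0 passed (median 0.04) and 0 had groups that did not overlap, beside 19.1% of all tested genes. Slc46a1, the proton-coupled folate transporter, had 136 ± 19.8 in KO and 124 ± 18.0 in WT. Slc23a2, an ascorbate transporter, and Slc19a1, the reduced folate carrier, differed by 0.50 (limma adjusted p = 0.570) and 0.68 (0.717) on the log2 scale. Slc19a1 had 39.0, 10.3 and 32.4 in KO and 4.71, 27.1 and 22.2 in WT, with overlap, and its difference was -0.04 without WT replicate 1 and 1.24 without KO replicate 2. Of 7 carriers of nucleosides and nucleobases 0 passed (median -0.05). Slc28a3, a concentrative nucleoside transporter, had 126 ± 14.2 in KO and 139 ± 23.6 in WT. Slc28a1, of the same family, and Slc23a4, known as a nucleobase carrier in rat, differed by -0.61 (limma adjusted p = 0.488) and 0.83 (0.498) on the log2 scale.

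Of 8 genes put by family in the chloride and bicarbonate class 1 passed, Slc4a11 (median -0.01). Slc4a11 is in this class by family only, as it is known for proton and ammonia movement. Slc4a7, the sodium-bicarbonate cotransporter NBCn1, had 69.3, 64.6 and 64.8 in KO and 21.7, 40.1 and 36.6 in WT. The KO values lay close together above all WT values, and the gene did not pass (1.04 ± 0.27 (SE), limma adjusted p = 0.0977). Slc26a9, an epithelial chloride transporter and the highest of the class by mean, had 631 ± 50.4 in KO and 677 ± 91.9 in WT (limma adjusted p = 0.870). Of 10 carriers of sodium, protons, calcium and magnesium 0 passed, with 7 below 0 (median -0.16). In 3 of them the groups did not overlap (30%, beside 19.1% of all tested genes). Slc8a1, the sodium-calcium exchanger NCX1, had 62.8, 103 and 97.2 in KO and 128, 175 and 128 in WT, without overlap (-0.73 ± 0.24 (SE), limma adjusted p = 0.197). Slc24a3, a potassium-dependent sodium-calcium exchanger, had 16.3, 11.2 and 32.4 in KO and 32.0, 62.0 and 39.2 in WT, where KO replicate 3 reached the WT range (log2 fold change -1.19, limma adjusted p = 0.205). Slc9a9, an endosomal sodium-proton exchanger, had 179 ± 10.9 in KO and 225 ± 38.5 in WT. Both members of the phosphate and sulfate class, Slc20a2 and Slc26a2, had log2 fold changes of -0.19 and -0.07. This class has fewer than 5 members, so the naming rule did not choose them.

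**Figure D3:**
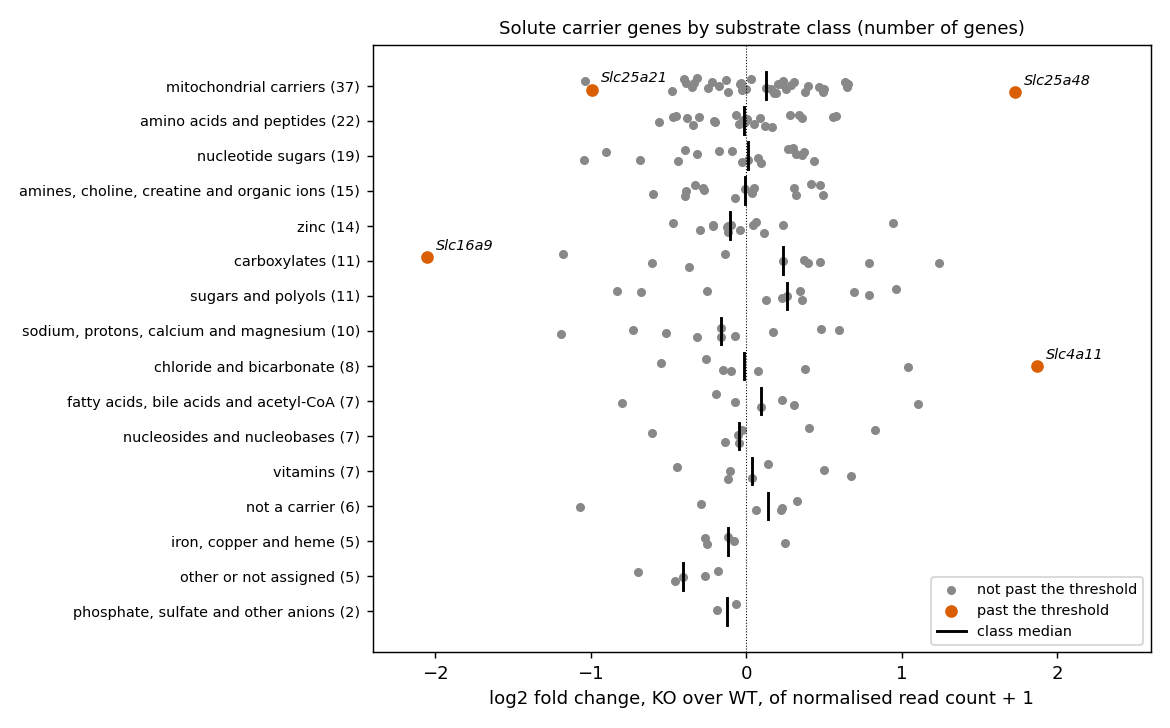
Log2 fold change of KO over WT (horizontal axis) of each of the 186 genes, in rows by substrate class with the number of genes, where black ticks are class medians and orange points the 4 genes that passed. Medians ran from -0.40 in the class not assigned to 0.26 for sugars and polyols, and 13 of 16 classes held 0 genes that passed.

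Of 14 zinc carriers 0 passed, with 9 below 0 (median -0.11). Slc30a4, the zinc exporter ZnT4, had 397, 467 and 437 in KO and 648, 545 and 613 in WT. Every KO library was below every WT library, but the gene did not pass (-0.47 ± 0.16 (SE), limma adjusted p = 0.215). Slc39a14, the metal importer ZIP14, had 14.1, 19.8 and 22.9 in KO and 10.4, 11.3 and 6.53 in WT (limma adjusted p = 0.331). Slc39a6, the importer ZIP6 and the highest of the class by mean, had 724 ± 86.8 in KO and 691 ± 56.0 in WT. Of 5 carriers of iron, copper and heme 0 passed, and none had groups that did not overlap, beside 19.1% of all tested genes. Slc31a2, a copper transporter relative, Slc11a2, the iron importer DMT1, and Slc48a1, the heme transporter HRG1, differed by -0.27, -0.25 and 0.25 on the log2 scale, with limma adjusted p of 0.589, 0.699 and 0.753.

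Inside the cell, 37 members belonged to the Slc25 family, classed here as a whole as mitochondrial carriers. Of these 1 was higher, 1 lower and 35 did not pass (median 0.13, 20 above 0). Besides Slc25a48 and Slc25a21, their groups did not overlap in 6, of which 4 had KO above WT. The 8 together were 21.6% of the class, close to the 19.1% of all tested genes. Slc25a44, a carrier of branched-chain amino acids, had 149.5, 92.2 and 131 in KO and 70.7, 75.9 and 84.9 in WT (log2 fold change 0.65, limma adjusted p = 0.213). It passed only with a weight per library, where 5.37% of all tested genes passed. Slc25a29, a carrier of basic amino acids, was low throughout, at 16.3, 12.9 and 14.3 in KO and 22.6, 31.4 and 40.5 in WT (log2 fold change -1.04, limma adjusted p = 0.168). Both were named after their values were seen. Slc25a3, the phosphate carrier that supplies ATP synthase, was the highest of all 186 by mean, with 1839, 1805 and 1657 in KO and 1421, 1381 and 1733 in WT. Its WT replicate 3 was level with KO (0.23 ± 0.17 (SE), limma adjusted p = 0.620). Slc25a4, the ADP/ATP carrier of muscle, also named after its values were seen, had 548, 316 and 327 in KO and 266, 332 and 376 in WT. Its highest library was KO replicate 1, in which skeletal muscle markers were high, and their part was not tested. The kit makes 1 tag per mRNA, so the values were not divided by gene length.

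Of 19 family 35 members, classed here as a whole as nucleotide sugar carriers, 0 passed (median 0.01, 10 above 0). The family is known for bringing nucleotide sugars and related molecules into the Golgi and ER, which is not established for every member. Slc35b1, the ER ATP/ADP exchanger and the highest of the family by mean, had 328, 356 and 314 in KO and 386, 364 and 316 in WT, with overlap (-0.09 ± 0.17 (SE), limma adjusted p = 0.869). Slc35f1, whose substrate is not established, had 18.4, 19.0 and 20.0 in KO and 42.4, 37.5 and 41.8 in WT. Both groups were tight and did not overlap, and the gene did not pass (-1.05 ± 0.26 (SE), limma adjusted p = 0.0873). Slc35f6 had 101, 106 and 120.1 in KO and 81.1, 69.8 and 90.1 in WT (limma adjusted p = 0.374). The 5 members not assigned to a class were all below 0 and 0 passed; among them Slc46a2 had 102, 203 and 209 in KO and 316, 195 and 299 in WT, and Slc66a2 had 505 ± 127 in KO and 599 ± 92.3 in WT (limma adjusted p = 0.334 and 0.663).

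**Figure D4:**
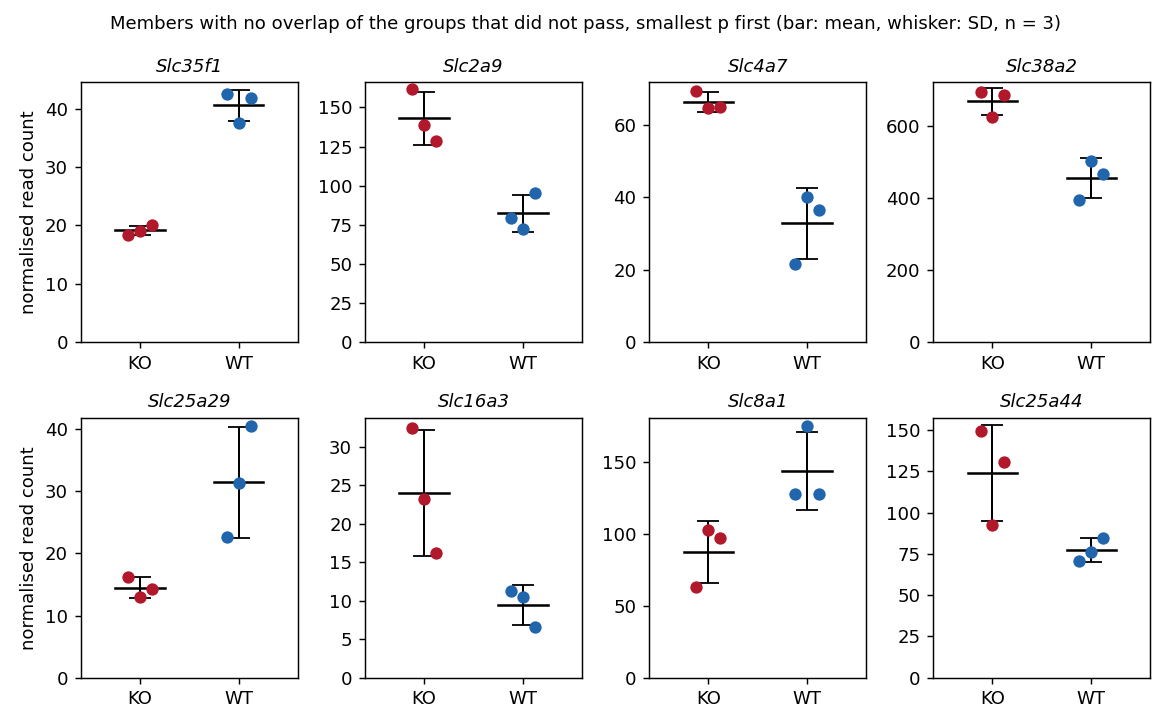
Normalised read count (vertical axis, from 0) in each mouse, KO left and WT right, with the mean as a bar and the SD as a whisker (n = 3 each), for the 8 genes with the smallest p among those whose groups did not overlap and that did not pass. Slc35f1 lay at 18.4 to 20.0 in KO and 37.5 to 42.4 in WT, and Slc38a2 at 625 to 693 in KO and 396 to 503 in WT.

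Of the 186 rows 6 are named after a carrier and encode none, and 0 of these passed. They are Slc9a3r1, the scaffold NHERF1 (677 ± 95.8 in KO and 577 ± 25.9 in WT), Slc4a1ap, the protein kanadaptin (log2 fold change 0.07), Slc7a6os (0.32), Slc6a19os (0.23), and the pseudogene rows Slc10a4-ps (-1.07) and Slc2a4rg-ps (-0.29). Slc6a19os overlaps the carrier gene Slc6a19 on the opposite strand in GENCODE M21. No source used here gives the strand setting of the counting, so whether it kept reads of the pair apart is not known.

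Some members varied more between mice of a genotype than between genotypes. Among those with a mean of at least 50, Slc19a2, a thiamine transporter, had the highest within-group SD, 1.34 on the log2 scale, beside a median of 0.359 over the 186. It had 24.9, 117 and 22.9 in KO and 127, 36.6 and 18.3 in WT. KO replicate 2 and WT replicate 1 were high and the other 4 libraries low (log2 fold change -0.12, limma adjusted p = 0.965). Slc35c1, the GDP-fucose transporter of the Golgi, had 53.1, 89.6 and 59.1 in KO and 99.0, 95.1 and 28.7 in WT, high in KO replicate 2 and WT replicates 1 and 2. Xbp1, the mRNA that Ire1α splices, had 194, 369 and 199 in KO and 449, 346 and 162 in WT and was high in the same 3 libraries. Slc6a6, the taurine transporter, had 398, 283 and 212 in KO and 401, 524 and 175 in WT. These were named after their values were seen, and a link between Slc35c1 and Xbp1 was not tested.

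Of 29 listed partners and regulators of solute carriers, 22 were tested and 0 passed (0 higher, 0 lower), beside 1.8% of all tested genes. With a weight per library, where 5.37% of all tested genes passed, Nedd4l passed as lower (limma adjusted p = 0.0415). Those with the smallest p were Nedd4l, a ubiquitin ligase that takes transporters off the surface, and Arrdc4, an arrestin-like protein related to Txnip. Nedd4l had 79.1, 110.3 and 87.7 in KO and 130.1, 159.7 and 141 in WT (log2 fold change -0.64, limma adjusted p = 0.172). Arrdc4 had 218, 265 and 245 in KO and 301, 309 and 509 in WT (log2 fold change -0.58, limma adjusted p = 0.278). Both were without overlap, KO below WT.

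At the edge of the level rule, the third highest of 6 values was 10.3 for Slc25a33 and 10.5 for Slc2a1 just inside, and 9.75 for Slc12a4 and 9.60 for Slc22a5 just outside. At least 10 was reached in all 6 libraries by 157 of the 186, and 0 met the rule in all libraries of 1 genotype with none in the other. For 22 of the 186, all 3 libraries of 1 genotype reached it and fewer did in the other. Of the 186, 91 had a mean under 50, where few reads limit what the test can show. Of the 148 rows under the level 0 passed when no filter was applied.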

How the data were processed

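Sample titles gave the groups and replicate numbers. Value columns were matched to samples through the library name in each description, leaving 0 unmatched. The authors deposited normalised read counts per gene, a signal on a linear scale per the file headers. The submitters' processing notes name FastQC, STAR, featureCounts and DESeq2 with no versions. Genome build, annotation and strand setting of the counting: not given in the sources used here. A second deposited table lists the genes the authors called, with, per the file headers, log2 fold changes, a Wald score, p-values and q-values. Every normalised value was a whole multiple of 1 step per library (100% within 0.01 of a whole read), worth 0.862 to 1.31, so whole reads were recovered; a value of 0 allows up to 3 reads, for counting error only. Rows without a symbol (3192) held 0.0768% to 0.119% of the values and were kept.

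Values were transformed to log2(value + 1), and the 10987 of 21778 detected genes with at least 10 in at least 3 libraries were tested, KO against WT, two-sided, with limma 3.58.1 (intensity trend, R 4.3.3) and Benjamini-Hochberg adjustment at 0.05. Alternatives used edgeR 4.0.16 (190 genes called over the whole table), DESeq2 1.42.0 (368) and the settings given in the closing section. The smallest exact permutation p that 3 mice against 3 allow is 0.1, so no such test is reported. The fit was checked on simulated counts. Each library is 1 mouse. Same-numbered KO and WT libraries had correlations of deviations from their group means of -0.25, 0.03 and 0.28, so replicate numbers were not taken as pairs.

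Genes were put into 16 substrate classes by family from general knowledge. The genes named are those past the threshold, the 2 with the smallest p and the highest mean of each class of at least 5, those without overlap, with a log2 change of at least 1 and a mean of at least 50, and rows that encode no carrier; others are marked. The members, classes, marker and partner lists were chosen with earlier results of these data known.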

Additional observations from a re-analysis of the deposited data

How the results depend on the processing

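Slc25a48 and Slc4a11 were called higher in all 18 alternatives run. The 2 genes called lower were called with other scalings, pseudocounts and filters, robust moderation, edgeR and DESeq2. With the name style as a covariate the genes called lower numbered 0, the named genes that passed 2 in place of 4, and the median log2 fold change of the 186 was 0.021 in place of -0.026. With a weight per library 6 were called higher and 4 lower, 8 of them among the named genes; all genes called then numbered 590 (5.37%). The added ones among the named genes were Slc38a2, Slc4a7, Slc35f1 and Slc2a9, with limma adjusted p from 0.0277 to 0.0458. Slc25a44 and Slc35g1, which the naming rule did not choose, were called there too. Leaving out 1 library gave 2 higher in each fit, 0 to 2 lower, 2 to 4 of the named genes and a median from -0.021 without WT replicate 3 to 0.034 without KO replicate 3. With the replicate number as a block the genes called lower numbered 1, as Slc25a21 did not pass (limma adjusted p = 0.0794); the block was not taken as pairing and changed no other call among the named genes. The cause of these changes was not tested. Of 41 named genes that were not called, 6 changed sign under some alternative, without a call: Slc11a2 and Slc28a3 with a weight per library, Slc39a6 there and without KO replicate 2, Slc6a19os and Slc4a1ap without KO replicate 1, and Slc19a1 without WT replicate 1. The filter at 50 left 12 of the named genes without a value. A gene near 10 reads per library is limited by counting error.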
